A study of Mus musculus with 17 samples.

Results

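Dysplastic lesions of transgenic mouse lung were compared with lung of non-transgenic mice, across all genes that the arrays name. The comparison used 9 of the 17 arrays of the study: the 4 whose labelled tissue is a lung dysplastic lesion and the 5 whose labelled source is non-transgenic. The lesions came from SPC/cRaf transgenic mice, whose c-Raf transgene is under the surfactant protein C promoter, active in alveolar epithelium and mainly in type II cells. The control mice were wild type. All 4 lesion animals were labelled male, at 6, 5, 6 and 6 months of age, and the label of dysplasia replicate 2 names 2 animals. Non-transgenic replicates 1 to 5 were aged 7, 7, 11, 7 and 11 months, and replicates 1 and 5 were labelled male and the others female. The ages of the groups did not overlap, so age and group cannot be told apart. Per the labels each array stands for separate animals. The tissue was cut by laser from haematoxylin-stained frozen sections, alveolar cells in the case of the controls, so stroma, vessels and blood cells came along with the epithelium. The other 8 arrays, of adenocarcinoma and of transgenic lung that looked unaltered, served to estimate the spread and as levels to set beside. Adenocarcinoma replicates 1 to 4 came from SPC/cRaf mice aged 14, 11.5, 12 and 13 months. Of these, replicate 2 was labelled female and the others male, and the label of replicate 4 names 2 animals. Unaltered tissue came from the same animal labels as dysplasia. The transgene's own level was not analysed here.

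The RAF kinases pass a growth signal from RAS to the kinases MEK and ERK, and ERK switches on early transcription factors together with feedback inhibitors such as the Sprouty proteins and the dual-specificity phosphatases. Type II cells make surfactant and act as progenitors of the flat type I cells that carry gas exchange. In dysplasia, cells that still line the alveolus grow with altered shape and order before an invasive tumour forms.

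Values are log2 RMA values per transcript cluster, the array's unit for a gene, and a difference of 1 is 2-fold. Array medians were 6.67 to 6.85, and precision is limited by how few arrays there are. Defining markers of the labelled tissue were present: the 6 type II cell markers averaged 13.17 to 13.21 in dysplasia and 12.66 to 12.78 in non-transgenic lung, and the 6 type I cell markers averaged 10.89 to 11.14 and 11.17 to 11.4. Sftpc, the surfactant gene whose promoter the transgene uses, lay between 14.14 and 14.24 on all 9 arrays, at or near the highest value of each array. It did not pass the test (0.04 ± 0.05, SE), but values at the top of the scale leave little room for a rise to show. Whether its level differed was thus not decided. The controls fell into 2 sets. Spearman correlations across genes were 0.989 to 0.992 within non-transgenic replicates 1 to 3, 0.991 between replicates 4 and 5, and 0.975 to 0.98 between the sets. Replicates 4 and 5 were low in Y-linked genes, at means of 3.78 and 3.67 against 8.45 to 8.48 in replicates 1 to 3 and 8.01 to 8.3 in dysplasia, which goes against the labelled sex of replicates 2, 3 and 5. Many results below are also given against each set, as replicates 1 to 3 and replicates 4 and 5. Fits of animals labelled male kept only non-transgenic replicates 1 and 5 as controls, 1 from each set. A call lost there therefore does not isolate sex.

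Of 14939 transcript clusters with 1 gene symbol, 1489 were called higher in dysplasia (9.97%) and 1997 lower (13.4%) by limma at an adjusted p under 0.05, 3486 in all (23.3%). The groups did not overlap in 3528 (23.6%), and 3020 (20.2%) were both called and free of overlap. A change of at least 2-fold was called for 231 higher (1.55%) and 239 lower (1.6%). Over all 23238 transcript clusters, named or not, 1770 were called higher (7.62%) and 2292 lower (9.86%), 303 (1.3%) and 276 (1.19%) of them by at least 2-fold. The median log2 change over all 14939 was -0.01, with quartiles of -0.17 and 0.14. The 15 largest rises were of 2.58 to 4.68 on the log2 scale, and the 15 largest falls, Cyp1a1 aside, of 1.46 to 1.82.

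The 4 lesions were not equally far from healthy lung. On the first principal component of all 17 arrays, which held 34.3% of the variance, the non-transgenic arrays scored -42.1 to -27.6, dysplasia replicates 1 to 4 scored -1.2, 14.2, 29.9 and -0.1, and adenocarcinoma 49.1 to 56. Among the 231 genes higher by at least 2-fold, dysplasia replicate 3 was the lesion farthest from the controls in 200, and among the 239 lower ones in 211. Replicates 1 and 4 were most often the nearest, in 125 and 81 of the higher genes and in 103 and 120 of the lower ones. These genes were chosen on the mean of the same 4 lesions, so a far lesion helps genes into the set. The counts are thus partly fixed by the choice, and genes of 1 array are not independent of each other. Without replicate 3, genes lower by at least 2-fold numbered 137.

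**Figure D1:**
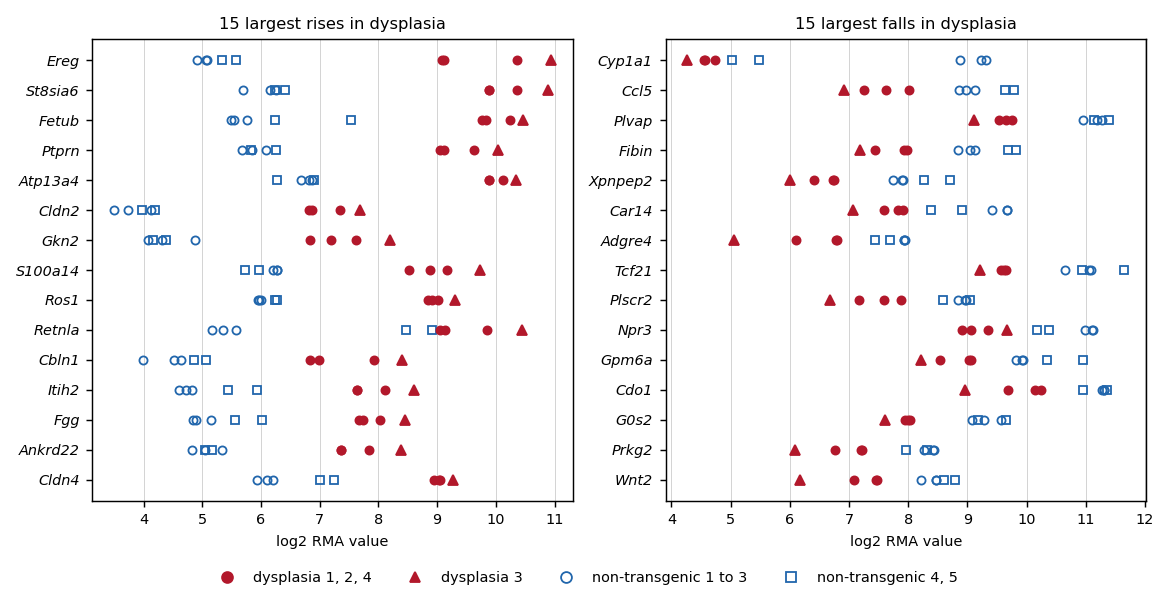
Log2 RMA value (x axis) of the 15 largest rises (left) and 15 largest falls (right) on each of the 4 dysplasia arrays (filled) and 5 non-transgenic arrays (open), with dysplasia replicate 3 as a triangle and non-transgenic replicates 4 and 5 as squares. For every gene shown the filled and open symbols do not overlap, since the rule asked for that. For Cyp1a1 and Retnla the squares lie close to the filled symbols.

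The steepest rise was that of the epiregulin gene Ereg, whose product is a ligand of the EGF receptor. Its log2 level was 9.08, 10.36, 10.94 and 9.12 in dysplasia replicates 1 to 4, against 5.08, 5.07, 4.91, 5.57 and 5.34 in non-transgenic replicates 1 to 5. Every lesion lay at least 3.51 above every control, and replicates 2 and 3 lay above 1 and 4. The log2 change of 4 arrays against 5 was 4.68 ± 0.35 (SE, limma adjusted p = 3.83e-07), or 25.6-fold. As for every SE here, the spread was estimated from all 17 arrays. Controls 1 to 3 lay about the lower quartile of the arrays (5.02 to 5.11), so the size of this change is less certain than its direction. Next came St8sia6, a sialyltransferase gene whose enzyme adds sialic acid to sialic acid, at 9.89, 10.36, 10.89 and 9.89 in dysplasia and 5.7, 6.26, 6.15, 6.24 and 6.41 in the controls. The change of 4.11 ± 0.22 was 17.2-fold, and again replicate 3 was highest.

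Fetub, the gene of the plasma protein fetuin-B, read 9.77, 10.24, 10.47 and 9.83 in dysplasia and 5.49, 5.76, 5.54, 6.23 and 7.53 in the controls, a rise of 3.97 ± 0.34. Non-transgenic replicate 5 was the control nearest to the lesions. Ptprn, a protein of dense-core secretory granules, rose by 3.51 ± 0.19, from controls of 5.68 to 6.26 to lesions of 9.04 to 10.04. Atp13a4, of the P-type ATPases, changed by 3.35 ± 0.14 and had controls of 6.28 to 6.9 and lesions of 9.88 to 10.34. In Ros1, a receptor tyrosine kinase gene, the lesions were almost level at 8.91, 9.02, 9.3 and 8.84 and the controls at 5.94, 5.96, 6, 6.24 and 6.28, which gave 2.93 ± 0.11. S100a14, a calcium-binding protein gene, rose by 2.98 ± 0.19 and Ankrd22, an ankyrin repeat gene, by 2.65 ± 0.18.

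The remaining large rises were of secreted and junction proteins. Cldn2, a pore-forming claudin, rose by 3.28 ± 0.20, Gkn2, a gastrokine of the stomach, by 3.10 ± 0.29 and Cbln1, a secreted protein known from synapses, by 2.92 ± 0.30. The controls of these 3 genes, at 3.5 to 4.2, 4.08 to 4.87 and 3.99 to 5.07, lay at or below the lower quartile of the arrays (5.02 to 5.11), so the size of their change is less certain than its direction. Itih2, a heavy chain of the inter-alpha-trypsin inhibitor, rose by 2.89 ± 0.28, the fibrinogen gene Fgg by 2.68 ± 0.26 and the tight junction gene Cldn4 by 2.58 ± 0.23. The same limit holds for Itih2 and Fgg, whose controls 1 to 3 read 4.61 to 4.83 and 4.84 to 5.14. It also holds for Ankrd22, with controls of 4.82 to 5.33. Retnla, a small secreted protein of alternatively activated macrophages and airway cells, read 9.13, 9.85, 10.44 and 9.04 in dysplasia. Its controls were 5.16, 5.36 and 5.58 in replicates 1 to 3 but 8.91 and 8.47 in replicates 4 and 5. The rise of 2.92 ± 0.74 was thus 4.25 against the first set and 0.93 against the other, where it did not pass (adjusted p = 0.329). The call was also lost with labelled sex as a covariate (0.0819), when only the 9 arrays were fitted (0.0541) and without the arrays that name 2 animals (0.0579).

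Falls were smaller and more even. Cyp1a1, a P450 enzyme induced through the aryl hydrocarbon receptor, headed them at -3.06 ± 0.75 (SE, 4 arrays against 5; adjusted p = 0.00855). It read 4.55, 4.57, 4.27 and 4.73 in dysplasia, 8.88, 9.31 and 9.23 in non-transgenic replicates 1 to 3 and 5.48 and 5.03 in replicates 4 and 5. The lesions were low throughout, and the size of the fall came from the first 3 controls: it was -4.61 against them and -0.72 against the other 2. Its call was lost when only the 9 arrays were fitted (adjusted p = 0.0693), with labelled sex as a covariate (0.0753) and in animals labelled male (0.0606).

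Ccl5, a chemokine that T and NK cells make, read 8.02, 7.26, 6.91 and 7.62 in dysplasia and 9.12, 8.98, 8.85, 9.64 and 9.79 in the controls, a fall of 1.82 ± 0.24. Plvap, which builds the diaphragms of endothelial openings, read 9.66, 9.53, 9.11 and 9.76 against 10.96, 11.27, 11.19, 11.39 and 11.14, with a fall of 1.68 ± 0.12. The groups lay clearly apart in both, with replicate 3 the lowest lesion. In cut tissue such as this, fewer cells of a type and less RNA per cell cannot be told apart. Tcf21, a transcription factor of lung mesenchyme, fell by 1.56 ± 0.18 (9.22 to 9.66 against 10.65 to 11.65) and Wnt2, a mesenchymal ligand gene, by 1.46 ± 0.24 (6.17 to 7.48 against 8.22 to 8.79). Fibin, a secreted factor gene, fell by 1.67 ± 0.22 and Gpm6a, a membrane glycoprotein gene, by 1.49 ± 0.24.

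Other falls among the 15 largest were of enzymes, transporters and receptors. They comprised Xpnpep2, a membrane aminopeptidase (-1.62 ± 0.18), Car14, a carbonic anhydrase (-1.61 ± 0.23), and Plscr2, of the scramblase family (-1.55 ± 0.20). Adgre4, an adhesion receptor of myeloid cells, fell by 1.60 ± 0.28 and spread widely in dysplasia, at 6.78, 6.11, 5.06 and 6.79, against controls of 7.43 to 7.95. Cdo1, which oxidises cysteine, fell by 1.48 ± 0.20, G0s2, an inhibitor of triglyceride breakdown, by 1.47 ± 0.12 and the cyclic GMP kinase gene Prkg2 by 1.46 ± 0.19. For Npr3, the clearance receptor of natriuretic peptides, the fall was 1.50 ± 0.28, with lesions of 8.91, 9.35, 9.67 and 9.06. Here replicate 3 was the lesion nearest to the controls, which read 10.99, 11.1, 11.12, 10.37 and 10.18, and the fall of 1.03 against replicates 4 and 5 did not pass (adjusted p = 0.061).

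In 49 gene lists, 934 of 1116 genes were measured. A list is described by how many measured members passed in each direction and by its median log2 change, to be read against 9.97% higher, 13.4% lower and a median of -0.01 over all genes. Against non-transgenic replicates 1 to 3 alone these shares were 15.2% (2264) and 14.5% (2161), and against replicates 4 and 5 alone 7.95% (1188) and 14.1% (2110).

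**Figure D2:**
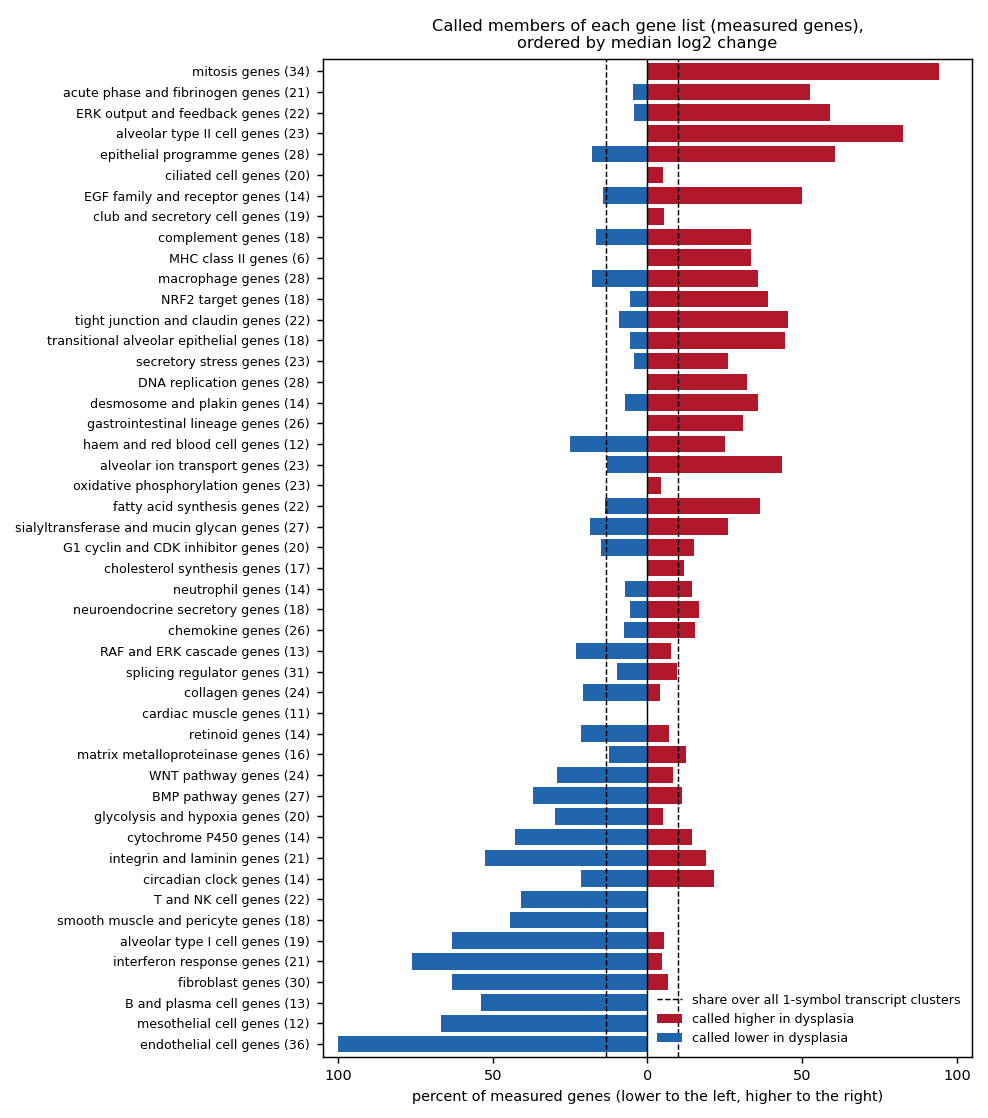
Share of measured members of each gene list (number in brackets) called higher (red, right) or lower (blue, left) in dysplasia, in percent, with lists ordered by median log2 change and the shares over all 1-symbol transcript clusters as dashed lines at 9.97% and 13.4%. Mitosis genes, with 94.1% higher, stand at the top and endothelial cell genes, with 100% lower, at the bottom.

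ERK output and feedback genes were mostly higher in the lesions. Of 22 measured ERK output and feedback genes 13 rose, 1 fell and 8 did not pass, with a median of 0.67 (0.64 against non-transgenic replicates 1 to 3 and 0.47 against 4 and 5, with 13 higher and 1 lower each time). Etv4, an ETS transcription factor, read 6.68, 7.36, 7.83 and 6.65 in dysplasia and 5.8, 5.78, 5.84, 6 and 6.06 in the controls, a rise of 1.23 ± 0.19. Lesions 2 and 3 were well above 1 and 4, and the groups did not overlap. Egr1, an immediate early transcription factor, rose by 1.17 ± 0.16 (7.9 to 8.62 against 6.69 to 7.38) and Myc by 1.10 ± 0.19 (8.02 to 8.85 against 6.85 to 7.49). Fos, the partner of Jun in AP-1, rose by 0.91 ± 0.12.

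Feedback inhibitors of the cascade took part unevenly. Dusp6, the phosphatase that takes the phosphate off ERK, read 11.12, 11.51, 11.77 and 11.19 in dysplasia and 10.35, 10.65, 10.67, 10.42 and 10.79 in the controls, and rose by 0.83 ± 0.12. Spry2 rose by 0.67 ± 0.12, Spry1 by 0.35 ± 0.07, Spred1 by 0.70 ± 0.07 and Dusp4 by 0.67 ± 0.10. Spry4 (-0.10 ± 0.09) and Spred2 (-0.03 ± 0.09) did not pass. Spry2 was lost in animals labelled male (adjusted p = 0.0852). Ier3, an immediate early gene, was the member that fell, by 0.79 ± 0.11, from 9.63 to 9.96 in the controls to 8.99 to 9.22 in the lesions.

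Of 13 measured RAF and ERK cascade genes, which comprise kinases, scaffolds and exchange factors, 1 rose and 3 fell, with a median of -0.04. Map2k1, which encodes MEK1, rose by 0.31 ± 0.08, but by 0.13 against replicates 4 and 5 (adjusted p = 0.298). Its call was also lost with labelled sex as a covariate (0.0773), in animals labelled male (0.189) and when only the 9 arrays were fitted (0.0782). The scaffold genes Ksr1 and Shoc2 fell by 0.40 ± 0.07 and 0.37 ± 0.06. The third fall was that of the exchange factor gene Rasgrp1, by 0.36 ± 0.11 with overlapping groups (adjusted p = 0.0426), and its call was lost in 18 of the 24 alternatives.

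EGF family ligands and receptors went in different directions. Of 14 measured members 7 rose and 2 fell, with a median of 0.52 (9 and 2 against non-transgenic replicates 1 to 3, 5 and 2 against 4 and 5). Among ligands beside Ereg, Btc (betacellulin) rose by 0.86 ± 0.16, Hbegf by 0.79 ± 0.11, Epgn (epigen) by 0.57 ± 0.17 from a low level, and Tgfa by 0.55 ± 0.14 with overlapping groups. Egf itself lay at 4.79 to 4.98 on all 9 arrays. Of the receptors, Erbb3, which signals as a partner, rose by 1.24 ± 0.11 from 8.65 to 9.27 to 10.13 to 10.27, and Erbb2 rose by 0.73 ± 0.08. Egfr fell by 0.58 ± 0.08: it read 7.74, 7.47, 7.53 and 7.69 in dysplasia and 8.12, 8.24, 8.22, 8.17 and 8.19 in the controls. Lrig3, of a family of membrane proteins that bind these receptors, fell by 0.74 ± 0.15.

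**Figure D3:**
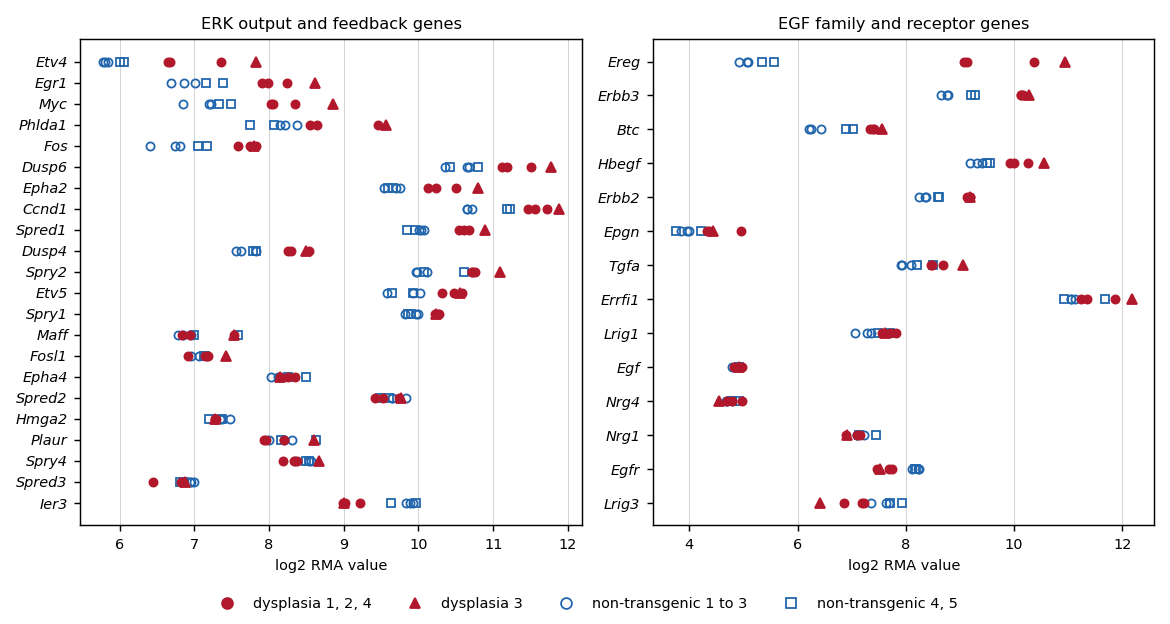
Log2 RMA value (x axis) of every measured ERK output and feedback gene (left) and EGF family or receptor gene (right) on each of the 9 arrays, ordered by the log2 change, with symbols as for the largest changes. Etv4, Egr1, Myc and Ereg lie apart between the groups in the upper rows, Egf and Spry4 overlap, and Ier3, Egfr and Lrig3 lie lower in dysplasia.

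Genes of cell division rose together. Of 34 measured mitosis genes 32 rose and none fell, with a median of 0.84 (31 higher against non-transgenic replicates 1 to 3 and 26 against 4 and 5). The list mean was 6.92, 7.07, 7.32 and 6.89 in dysplasia replicates 1 to 4 and 6.1, 6.2, 6.14, 6.32 and 6.18 in the controls, so every lesion lay above every control. Birc5 (0.52 ± 0.17, adjusted p = 0.0515) and Cenpa (0.06 ± 0.07) did not pass. Kif23, a motor of the central spindle, read 8.05, 8.32, 8.59 and 8.09 against 6.51, 6.57, 6.59, 6.46 and 6.23, a rise of 1.79 ± 0.12. Prc1, which bundles spindle microtubules, rose by 1.67 ± 0.17, Ect2, which starts cell cleavage, by 1.34 ± 0.12 and the topoisomerase gene Top2a by 1.26 ± 0.14. Mki67, the antigen Ki-67, rose by 1.18 ± 0.24, from 6.69, 6.6, 6.4, 6.03 and 5.51 to 7.33, 7.6, 7.67 and 7.11, and was lost with age as a covariate (adjusted p = 0.0681).

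The 250 bases before the starts of the mitosis genes were searched on both strands for 2 motifs known from late cell cycle genes. These were the CCAAT box (CCAAT) and the cell cycle homology region (TTTGAA). The whole list was searched, called or not, so the shares describe the list and not its change here. RefSeq (GRCm38.p6) gave promoters for 30 of the 34 genes, 32 in all. CCAAT was in 25 of the 32 (78.1%) and TTTGAA in 11 (34.4%), against 33.8% and 16% of all 32851 promoters. The sequences of 3 of the 4 largest rises are shown, from chr9:61946800-61947049 (minus strand), chr3:27153879-27154128 (minus strand) and chr11:99024190-99024439 (minus strand). Capitals mark matches to either motif, which do not overlap each other here, and a match read on the other strand appears as ATTGG or TTCAAA.
Kif23: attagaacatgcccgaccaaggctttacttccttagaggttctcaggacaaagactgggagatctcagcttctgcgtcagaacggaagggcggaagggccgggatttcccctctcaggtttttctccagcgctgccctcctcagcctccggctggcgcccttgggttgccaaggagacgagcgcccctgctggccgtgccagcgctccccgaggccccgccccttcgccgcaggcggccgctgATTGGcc
Ect2: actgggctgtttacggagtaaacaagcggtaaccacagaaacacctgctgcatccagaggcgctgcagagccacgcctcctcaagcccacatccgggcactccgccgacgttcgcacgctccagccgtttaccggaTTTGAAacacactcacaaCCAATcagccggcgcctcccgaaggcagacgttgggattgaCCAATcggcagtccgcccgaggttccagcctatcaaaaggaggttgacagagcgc
Top2a: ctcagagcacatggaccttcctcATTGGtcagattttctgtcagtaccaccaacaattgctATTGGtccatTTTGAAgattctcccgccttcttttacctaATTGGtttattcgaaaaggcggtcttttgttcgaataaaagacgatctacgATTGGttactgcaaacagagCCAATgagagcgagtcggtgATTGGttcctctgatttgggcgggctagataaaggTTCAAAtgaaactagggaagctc
Kif23 held 1 CCAAT match and no TTTGAA in this window, Ect2 held 2 and 1, and Top2a 6 and 2. Prc1, the other of the 4 and not shown, held 1 CCAAT match and no TTTGAA at the first of its 2 starts. For Ect2 the table lists 2 starts, and the first is shown. A match is a description of the letters, not of binding.

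DNA replication genes moved less. Of 28 measured 9 rose and none fell, with a median of 0.22 (13 higher against non-transgenic replicates 1 to 3, 4 against 4 and 5). Uhrf1, which keeps DNA methylation through replication, led with 1.25 ± 0.14 (7.72 to 8.4 against 6.47 to 7.06). Among 20 measured G1 cyclin and CDK inhibitor genes 3 rose and 3 fell (6 and 3 against replicates 1 to 3, 2 and 3 against 4 and 5). Ccnd1, cyclin D1, rose by 0.77 ± 0.13, from 10.65, 10.71, 10.65, 11.22 and 11.18 to 11.46, 11.72, 11.88 and 11.56. Cdkn1a, the inhibitor p21, rose by 1.13 ± 0.26, with lesions 2 and 3 at 9.43 and 9.91, lesions 1 and 4 at 8.69 and 8.63 and controls of 7.74 to 8.28. Its call was lost in animals labelled male (adjusted p = 0.0851) and with age as a covariate (0.054). The inhibitor gene Cdkn2c fell by 0.97 ± 0.15 and the kinase gene Cdk6 by 0.67 ± 0.10. Cdkn2a did not pass, at 0.32 ± 0.11 (adjusted p = 0.0568), with values of 7.09 to 7.44 against 6.81 to 7.22.

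Alveolar type II cell genes were higher. Of 23 measured 19 rose and none fell, with a median of 0.66. The list mean was 11.6 to 11.79 in dysplasia and 10.94 to 11.2 in non-transgenic lung. Ctsh, a protease that processes surfactant protein, read 11.59, 12.03, 12.1 and 11.78 against 10.01, 9.99, 10.1, 10.29 and 10.42, a rise of 1.71 ± 0.11. Muc1, a membrane mucin, rose by 1.22 ± 0.10, the surfactant genes Sftpd and Sftpb by 1.12 ± 0.09 and 0.78 ± 0.06, and the alarmin gene Il33 by 1.12 ± 0.17. Il33 was 11.82 in lesion 3 and 10.9 to 11.37 in the others.

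Type I cell genes were mostly lower. Of 19 measured 12 fell and 1 rose, with a median of -0.37. Igfbp2, a binding protein of insulin-like growth factors, fell by 1.37 ± 0.16 (9.29, 8.92, 8.47 and 9.41 against 10.29 to 10.49), the proteoglycan gene Spock2 by 1.11 ± 0.13 and Hopx, a homeodomain regulator, by 0.84 ± 0.09. Ager, a standard type I marker, did not pass: it read 12.69 to 12.77 in dysplasia and 12.65 to 12.79 in the controls, with a change of -0.00 ± 0.05. Aqp5, a water channel, was the member that rose, by 0.64 ± 0.09.

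Genes of the transitional state that type II cells pass on their way to type I cells were partly higher. Of 18 measured 8 rose and 1 fell, with a median of 0.29. Cldn4 read 8.95, 9.04, 9.27 and 9.03 in dysplasia, 6.1, 6.2 and 5.93 in non-transgenic replicates 1 to 3 and 7.24 and 7 in replicates 4 and 5, so it lay apart from both sets. Clu, the chaperone clusterin, rose by 1.78 ± 0.13 (12.2 to 12.38 against 10.23 to 10.78) and Krt18, a keratin of simple epithelia, by 1.56 ± 0.12 (11.13 to 11.65 against 9.57 to 10.05). Krt19 rose by 0.64 ± 0.18 with overlapping groups and did not pass against replicates 4 and 5 (0.18, adjusted p = 0.51) or in 9 other settings. Ankrd1, a stress-responsive ankyrin repeat gene, fell by 0.80 ± 0.24.

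Most genes of the epithelial programme were higher. Of 28 measured 17 rose and 5 fell, with a median of 0.63. Elf5, an epithelial ETS factor, rose by 1.50 ± 0.19, the splicing regulators Esrp1 and Esrp2 by 1.38 ± 0.11 and 1.01 ± 0.07, the adhesion gene Epcam by 1.32 ± 0.16 and the protease inhibitor gene Spint1 by 1.28 ± 0.12. Esrp1 read 9.44, 9.52, 9.62 and 9.43 in dysplasia and 7.98, 8.06, 8.06, 8.12 and 8.41 in the controls, with no overlap. The 5 that fell were Snai2 (-1.08 ± 0.15), Zeb1 (-1.03 ± 0.16), Zeb2 (-0.65 ± 0.11), Cdh2 (-0.41 ± 0.09) and Vim (-0.33 ± 0.07), which encode repressors of the epithelial state, N-cadherin and vimentin and are all used by stromal cells. Beside Esrp1 and Esrp2, 1 of 31 measured splicing regulator genes rose, Mbnl3 by 0.67 ± 0.11, and 3 fell, Qk by 0.44 ± 0.09. Of the 31, 4 were higher and 6 lower against non-transgenic replicates 1 to 3, and 8 and 2 against replicates 4 and 5, and the median turned from -0.12 to 0.07.

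Junction genes changed in both directions. Of 22 tight junction and claudin genes 10 rose and 2 fell, with a median of 0.30, which was 0.51 against non-transgenic replicates 1 to 3 and -0.03 against 4 and 5. After Cldn2 and Cldn4, Cldn3 rose by 1.26 ± 0.16, Cldn7 by 1.12 ± 0.19 and Cldn1 by 1.00 ± 0.20. The endothelial claudin gene Cldn5 fell by 1.31 ± 0.21 and the scaffold gene Tjp1 by 0.44 ± 0.08. Of 14 desmosome and plakin genes 5 rose and 1 fell, with 7 higher against replicates 1 to 3 and 3 against 4 and 5. Lad1, a basement membrane anchor, rose by 1.21 ± 0.13. Jup, which encodes plakoglobin, was the member that fell, by 0.35 ± 0.12 with overlapping groups (adjusted p = 0.0472), and its call was lost in 16 of the 24 alternatives. Perp rose by 0.95 ± 0.23. It read 8.15 to 8.6 in dysplasia, overlapping control 5 at 8.19, and did not pass against replicates 4 and 5 (0.32, adjusted p = 0.226), nor in 3 other settings.

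Genes of plasma proteins rose in the lesions. Of 21 measured acute phase and fibrinogen genes 11 rose and 1 fell, with a median of 0.75. Lrg1, a leucine-rich glycoprotein, had the tightest values: 9.92, 10.12, 10.15 and 10.1 against 8.18, 8.44, 8.48, 8.47 and 8.33, a rise of 1.70 ± 0.07. Orm1, an acid glycoprotein, rose by 1.95 ± 0.26 from 3.44 to 4.13, a level under the arrays' lower quartile. The fibrinogen chains differed: Fgg read 7.67, 8.03, 8.45 and 7.73 against 5.14, 4.84, 4.9, 5.55 and 6.01, Fga rose by 1.48 ± 0.21, and Fgb did not pass at 0.34 ± 0.15. Of 18 complement genes 6 rose and 3 fell, among them Clu and Cfi (0.70 ± 0.12) upward and C2 (-0.81 ± 0.16, lost with age as a covariate at adjusted p = 0.0713) and Serping1 (-0.79 ± 0.08) downward. Against replicates 1 to 3 these counts were 10 and 3, and against replicates 4 and 5 they were 3 and 5.

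Of 26 gastrointestinal lineage genes 8 rose (30.8%) and none fell, with a median of 0.17 (10 higher and 1 lower against non-transgenic replicates 1 to 3, 7 and 2 against 4 and 5). After Gkn2, the mucin gene Muc4 rose by 1.74 ± 0.17 (8.02 to 8.52 against 6.11 to 6.94), Foxa1, a forkhead factor that lung also uses, by 0.60 ± 0.10 and Hnf4a, a regulator of gut and liver genes, by 0.56 ± 0.10. Cdx2, the intestinal regulator, was at 6.64 to 6.9 against 6.61 to 6.9, and Gkn1, the partner of Gkn2 in stomach, at 4.36 to 4.79 against 4.49 to 4.74. Of 18 neuroendocrine secretory genes 3 rose, Ptprn, Cbln1 and Ptprn2 (1.73 ± 0.08), 1 fell, Ddc (-0.69 ± 0.12), and the median was 0.02. Chga, chromogranin A, lay at 6.29 to 6.5 against 6.03 to 6.58.

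Ion channels and transporters changed both ways. Of 23 alveolar ion transport genes 10 rose and 3 fell, with a median of 0.11, and the counts were the same against each set of controls. The anion exchanger genes Slc26a4 and Slc26a9 rose by 2.54 ± 0.15 and 1.74 ± 0.17, and Slc12a2, the sodium, potassium and chloride cotransporter, by 1.49 ± 0.07. Slc12a2 read 11.44, 11.5, 11.58 and 11.42 against 9.96, 9.88, 9.93, 10.12 and 10.08, with little spread in either group. The chloride channel gene Cftr fell by 1.07 ± 0.11 and the water channel gene Aqp1, which lung capillaries use, by 1.01 ± 0.12. Of 27 sialyltransferase and mucin glycan genes 7 rose and 5 fell, with a median of 0.05. After St8sia6, the fucosyltransferase gene Fut2 rose by 2.32 ± 0.18 and Galnt3, which starts mucin glycans, by 1.34 ± 0.18. The controls of Fut2, at 4.87 to 5.73, lay near the arrays' lower quartile. The polysialyltransferase gene St8sia4 fell by 1.19 ± 0.25, lost in animals labelled male (adjusted p = 0.0841).

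Lipid and redox enzymes rose in part. Of 22 fatty acid synthesis genes 8 rose and 3 fell, with a median of 0.07. The pathway's main enzymes were among the risers: Acly by 0.73 ± 0.07, Acaca by 0.80 ± 0.08 and Fasn by 1.03 ± 0.08, and the activating enzyme gene Acsl4 by 1.21 ± 0.12. Fasn read 11.77, 11.77, 11.81 and 11.81 in dysplasia and 10.53, 10.73, 10.69, 11.05 and 10.8 in the controls. Of 17 cholesterol synthesis genes 2 rose (11.8%, near the share over all genes) and none fell, with 6 higher against non-transgenic replicates 1 to 3 and none against 4 and 5. Among 18 NRF2 target genes, which answer oxidants, 7 rose and 1 fell, with 12 higher against replicates 1 to 3 and 5 against 4 and 5. Gclc, the limiting enzyme of glutathione synthesis, rose by 1.46 ± 0.12 and the haem oxygenase gene Hmox1 by 1.21 ± 0.14.

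Other metabolic lists held few calls or falls. Of 20 glycolysis and hypoxia genes 6 fell and 1 rose, with a median of -0.18 and with 5 higher against replicates 1 to 3 and none against 4 and 5: Pfkfb3, an activator of glycolysis, fell by 1.11 ± 0.09 and Vegfa by 0.59 ± 0.11, and Hk2, a hexokinase gene, rose by 0.83 ± 0.18. Against replicates 4 and 5, Vegfa and Hk2 did not pass (adjusted p = 0.0538 and 0.071), nor did Hk2 in animals labelled male (0.0936). Of 23 oxidative phosphorylation genes 1 rose, with 8 higher against replicates 1 to 3, and 4 lower and none higher against 4 and 5. Of 14 cytochrome P450 genes 6 fell and 2 rose (4 and 4 against replicates 1 to 3, 6 and 1 against 4 and 5). Cyp2d22 fell by 1.28 ± 0.14, while Cyp1b1, like Cyp1a1 a target of the aryl hydrocarbon receptor, rose by 1.27 ± 0.19, with 7.35 to 7.7 against 5.86 to 6.79. Of 14 circadian clock genes 3 rose and 3 fell (2 and 2 against replicates 1 to 3, 4 and 6 against 4 and 5). Nfil3 rose by 1.29 ± 0.21 and Hlf fell by 1.14 ± 0.18, with non-transgenic replicate 5 at 9.17 and the other controls at 7.96 to 8.17. The hour at which tissue was taken was not analysed here.

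Vessel genes were lower without exception. All 36 measured endothelial cell genes fell, with a median of -1.0 and a range of -1.68 to -0.50. The list mean was 10, 9.75, 9.37 and 10.04 in dysplasia replicates 1 to 4 and 10.71 to 10.85 in non-transgenic lung. Against non-transgenic replicates 4 and 5 alone 35 of 36 passed. After Plvap and Cldn5, the transcription factor gene Sox7 fell by 1.28 ± 0.15 (8.28, 8.16, 7.73 and 8.2 against 9.09 to 9.6) and Clec14a, a surface lectin of vessels, by 1.23 ± 0.23, lost in animals labelled male (adjusted p = 0.0708). Pecam1, the adhesion gene CD31, fell by 0.91 ± 0.11, from 12.12, 12.16, 12.11, 11.85 and 11.84 to 11.26, 11.02, 10.8 and 11.36.

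Stromal genes fell, with exceptions. Of 30 fibroblast genes 19 fell and 2 rose, with a median of -0.54. Eln, the elastin gene, was the exception in size: it rose by 1.20 ± 0.14, from 8.64, 8.58, 8.65, 9.01 and 8.11 to 9.6, 9.86, 10.07 and 9.67. Of 24 collagen genes 5 fell (7 against replicates 1 to 3, 2 against 4 and 5) and 1 rose, with a median of -0.05, and Col1a1 did not pass (0.20 ± 0.10). Of 18 smooth muscle and pericyte genes 8 fell and none rose (median -0.34). The pericyte genes Cox4i2 and Higd1b fell by 0.89 ± 0.15 and 0.89 ± 0.19, the latter lost against replicates 4 and 5 (adjusted p = 0.1) and in animals labelled male (0.0655). The 3 defining smooth muscle markers, Acta2, Myh11 and Tagln, did not pass. Their mean was 8.81 to 8.84 in dysplasia and 8.68 to 9.72 in the controls. Of 12 mesothelial genes 8 fell (median -0.86), with Upk1b, a uroplakin, at -1.44 ± 0.14. No cardiac muscle gene of 11 passed.

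Matrix receptor genes changed in both directions, while rises among BMP and WNT pathway genes stayed near the share of 9.97% over all genes. Of 21 integrin and laminin genes 11 fell and 4 rose. Itga7, a laminin receptor chain, rose by 1.40 ± 0.07, with 8.3 to 8.41 against 6.78 to 7.15, and Itga9 rose by 0.74 ± 0.08. Itga8, of lung fibroblasts, fell by 1.21 ± 0.15 and Lama4, a laminin of vessel basement membranes, by 1.03 ± 0.12. Of 27 BMP pathway genes 10 fell (37%) and 3 rose (11.1%), with Smad6 (-1.17 ± 0.15), Tmem100 (-1.10 ± 0.14), Id3 (-1.10 ± 0.14) and Eng (-1.04 ± 0.11) downward. These 4 are known from endothelium. The ligand Bmp4 rose by 0.64 ± 0.08 and the antagonist Fst by 0.79 ± 0.16. Of 24 WNT pathway genes 7 fell (29.2%) and 2 rose (8.3%). The counts were 7 and 5 against replicates 1 to 3, and 12 and 1 against 4 and 5. Of 16 matrix metalloproteinase genes and their inhibitors 2 rose and 2 fell (12.5% each, near the shares over all genes), with 2 lower against replicates 1 to 3 and 5 against 4 and 5.

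**Figure D4:**
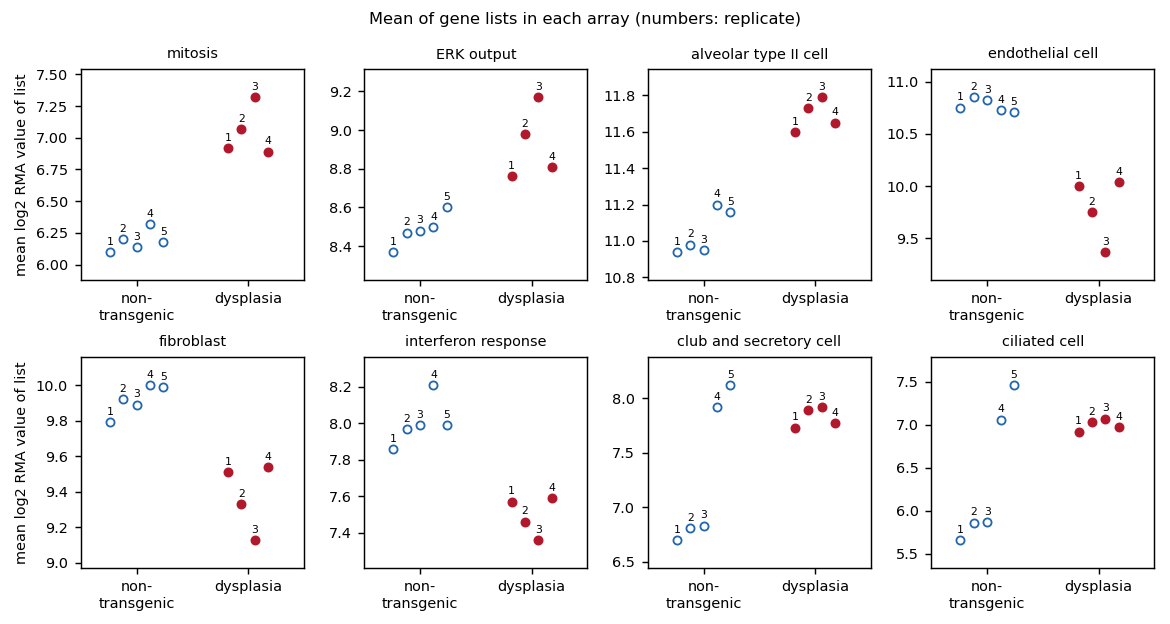
Mean log2 RMA value (y axis, scaled separately per panel) of the measured members of 8 gene lists on each non-transgenic (open) and dysplasia (filled) array, with the replicate number above each point. For mitosis, ERK output, type II cell, endothelial, fibroblast and interferon genes the groups do not overlap, and for club and ciliated cell genes controls 4 and 5 lie with the lesions.

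Immune cell lists differed in direction. Of 28 macrophage genes 10 rose and 5 fell, with a median of 0.34, which was 0.53 against non-transgenic replicates 1 to 3 (15 higher) and -0.05 against 4 and 5 (9 higher). Cd14, the endotoxin co-receptor, rose by 1.41 ± 0.21, Atp6v0d2, a proton pump subunit, by 1.14 ± 0.15, the glycoprotein gene Gpnmb by 1.09 ± 0.09 and the elastase gene Mmp12 by 1.07 ± 0.15. Gpnmb read 8.66, 8.84, 8.9 and 8.74 against 7.51, 7.63, 7.57, 7.75 and 7.98. The alveolar macrophage gene Siglecf rose by 0.75 ± 0.12 and the mannose receptor gene Mrc1 by 0.89 ± 0.15, whereas the scavenger receptor gene Marco and the growth factor receptor gene Csf1r fell by 0.43 ± 0.07 and 0.44 ± 0.09. Of 14 measured neutrophil genes 2 rose and 1 fell. Hdc, which makes histamine, rose by 2.20 ± 0.13 and the lipocalin gene Lcn2, which epithelium also makes, by 1.06 ± 0.12. The cytokine receptor gene Csf3r fell by 0.44 ± 0.15 (adjusted p = 0.0489), and its call was lost in 15 of the 24 alternatives. The defining neutrophil markers S100a8 and S100a9 did not pass, at -0.38 and -0.70.

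Lymphocyte genes were lower. Of 22 T and NK cell genes 9 fell and none rose, with a median of -0.32. The granzyme genes Gzma and Gzmb fell by 1.34 ± 0.21 and 1.17 ± 0.18, and Ncr1, a receptor of NK cells, by 1.23 ± 0.18. Gzma read 6.34, 5.87, 6.17 and 6.22 in dysplasia and 6.9, 7.15, 7.31, 8.16 and 7.96 in the controls, with controls 4 and 5 highest. Of 13 B and plasma cell genes 7 fell and none rose, with a median of -0.59 (9 lower against replicates 1 to 3, 4 against 4 and 5). Ms4a1, the B cell surface gene CD20, fell by 1.26 ± 0.28 and was not called against replicates 4 and 5 (-1.01, adjusted p = 0.101), in animals labelled male (0.097) or with age as a covariate (0.0508). Of 6 MHC class II genes 2 rose (5 against replicates 1 to 3, 1 against 4 and 5), Cd74 by 0.45 ± 0.07 and Ctss by 0.54 ± 0.15, the latter not against replicates 4 and 5 (0.17, adjusted p = 0.401) or in 4 other settings.

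Interferon response genes were mostly lower. Of 21 measured 16 fell and 1 rose, with a median of -0.54 (15 lower against non-transgenic replicates 1 to 3, 14 against 4 and 5). The guanylate-binding protein genes, which defend cells against pathogens, led: Gbp3 fell by 1.29 ± 0.14, Gbp2 by 1.20 ± 0.13, and Gbp5 and Gbp7 by 1.07 ± 0.15 and 1.07 ± 0.13. Gbp3 read 8.11, 7.83, 7.29 and 8.16 in dysplasia against 9.14, 9.12, 9.09, 9.24 and 9.11, and lesion 3 was again the farthest. The chemokine gene Cxcl9, itself switched on by interferon, was the member that rose, by 0.79 ± 0.16, but not against replicates 4 and 5 (0.61, adjusted p = 0.0661) or with age as a covariate (0.0807). Endothelial cell genes fell beside them, with a list mean of 9.37 to 10.04 against 10.71 to 10.85, and their part in the fall was not tested.

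The 250 bases before the starts of these genes were searched on both strands for the core of the interferon-stimulated response element (GAAA, any 2 bases, GAAA) and the gamma-activated site (TTCNNNGAA). RefSeq (GRCm38.p6) gave 22 promoters of 18 of the 21 genes. The whole list was searched here too, called or not, so the shares describe the list and not its change. The response element was in 9 of the 22 (40.9%) and the activated site in 5 (22.7%), against 3% and 7% of all 32851 promoters. The genes with the 2 largest falls are shown, from chr3:142559794-142560043 (plus strand) and chr3:142620413-142620662 (plus strand), with response element matches in capitals, which show TTTC in place of GAAA when read on the other strand.
Gbp3: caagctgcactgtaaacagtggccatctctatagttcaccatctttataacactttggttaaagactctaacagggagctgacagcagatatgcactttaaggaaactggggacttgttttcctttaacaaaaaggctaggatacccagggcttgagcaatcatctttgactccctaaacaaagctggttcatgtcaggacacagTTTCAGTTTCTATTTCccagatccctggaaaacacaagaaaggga
Gbp2: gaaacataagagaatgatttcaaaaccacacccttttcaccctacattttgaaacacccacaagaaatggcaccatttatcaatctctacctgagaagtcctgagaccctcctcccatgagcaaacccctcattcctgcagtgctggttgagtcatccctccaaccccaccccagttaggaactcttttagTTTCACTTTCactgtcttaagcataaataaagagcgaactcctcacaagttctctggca
Gbp3 held 2 such matches that overlap each other and Gbp2 held 1. Neither window held the activated site. For Gbp3 the table lists 2 starts, and the first is shown.

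Airway cell genes set the controls apart. Of 20 ciliated cell genes 18 were higher in dysplasia than in non-transgenic replicates 1 to 3, and none was higher than in replicates 4 and 5, with medians of 1.15 and -0.26. Over all 5 controls 1 of the 20 was called, Dnah11 (0.49 ± 0.11), itself lost in animals labelled male (adjusted p = 0.112). Of 19 club and secretory cell genes the counts were 11 and 1, with medians of 0.83 and -0.15. Cyp2f2, a club cell enzyme, read 13.12, 13.06, 12.94 and 13.12 in dysplasia, 10.38, 11.05 and 10.92 in replicates 1 to 3 and 13.18 and 13.24 in replicates 4 and 5. Dnah5, a motor protein of cilia, read 7.81, 7.73, 7.71 and 7.86 against 5.09, 5.27 and 5.19 and against 7.9 and 8.27. In both, the lesions and controls 4 and 5 were alike in level and controls 1 to 3 low. Kcnk2, a potassium channel gene of the club cell list, was the member called over all controls, at 1.25 ± 0.19.

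The part of airway cells in other results that differ between the control sets was not tested. Among the 188 named genes, 184 were called, and 32 of these were lost against non-transgenic replicates 4 and 5 alone, where 2 controls remain. Rises that shrank there include Rbp4, a retinol carrier (0.90 to 0.14), Gsta4, a glutathione transferase (1.19 to 0.41), and Cyp2s1, an epithelial P450 (1.14 to 0.45).

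**Figure D5:**
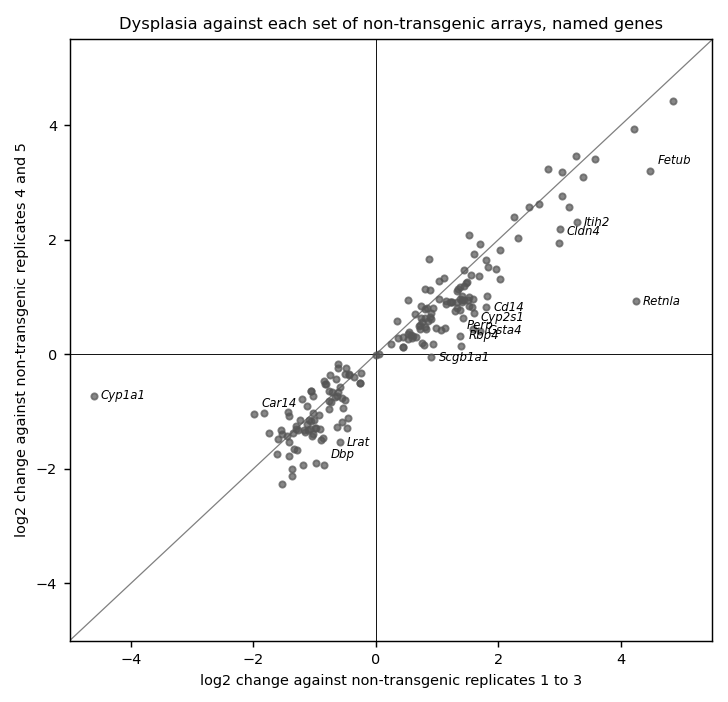
Log2 change of the named genes in dysplasia against non-transgenic replicates 1 to 3 (x axis) and against replicates 4 and 5 (y axis), with equal change as the diagonal; each point is a gene and both axes use the same 4 dysplasia arrays. Cyp1a1 (-4.61 and -0.72) and Retnla (4.25 and 0.93) lie farthest from the diagonal.

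Levels in the other transgenic tissues, given as means ± SD of 4 arrays with no test, place these changes in the series. The adenocarcinoma mice were older than the dysplasia mice, so age and lesion cannot be told apart in that step. Several of the largest rises lay between the control and dysplasia means in unaltered tissue and at or above dysplasia in adenocarcinoma. Ereg was 5.20 ± 0.26 in non-transgenic lung, 7.27 ± 0.81 in unaltered tissue, 9.87 ± 0.93 in dysplasia and 10.22 ± 0.18 in adenocarcinoma, and Ros1 was 6.67 ± 0.21 in unaltered tissue and 10.43 ± 0.04 in adenocarcinoma. Another group was already at or near its dysplasia level in tissue without a visible lesion. Fgg was 8.12 ± 0.55 in unaltered tissue, against a dysplasia mean of 7.97, and Lrg1 10.03 against 10.07. The macrophage genes Gpnmb (8.99 ± 0.02 against 8.78) and Atp6v0d2 (9.72 ± 0.2 against 9.72) and the lipid gene Fasn (11.64 ± 0.02 against 11.79) were also near it. Of these, Gpnmb lay somewhat above dysplasia and Fasn somewhat below. Among falls, Ccl5 was 7.56 ± 0.39 in unaltered tissue, 7.45 in dysplasia and 7.61 ± 0.24 in adenocarcinoma, and Cyp1a1 was 4.99 ± 0.17, 4.53 and 4.63 ± 0.18.

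Slc12a2 was near the control mean of 9.99 in unaltered tissue, at 10.05 ± 0.11, and at 11.89 ± 0.02 in adenocarcinoma. Other genes lay between the control and dysplasia means in unaltered tissue and beyond dysplasia in adenocarcinoma. Tcf21 was 10.48 ± 0.09 and 7.42 ± 0.34, against 11.07 in the controls and 9.51 in dysplasia, and Fibin 8.40 ± 0.17 and 4.96 ± 0.31, against 9.30 and 7.63. The endothelial list averaged 10.24 to 10.5 in unaltered tissue, below every control, and 8.48 to 8.58 in adenocarcinoma, below the dysplasia range of 9.37 to 10.04. Mitosis genes did not go further: their list mean of 6.94 to 7.13 in adenocarcinoma lay within the dysplasia range of 6.89 to 7.32, and in unaltered tissue it was 6.26 to 6.55. A few genes opposed the order, such as Cyp2s1, at 8.22 in dysplasia and 7.16 ± 0.15 in adenocarcinoma, and Dbp, a clock output gene, at 8.41 ± 0.58 in unaltered tissue, 8.74 in dysplasia and 9.34 ± 0.72 in adenocarcinoma.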

How the data were processed

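Labelled cDNA made from amplified RNA was run on Affymetrix mouse exon arrays, and the authors deposited log2 RMA values per gene-level transcript cluster, made from core exons in Expression Console per the labels; the submitters' processing notes also name GCOS, without a version. The genome build is not given in the sources used here. No value was missing, and none was filtered or rescaled.

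A single gene symbol was found for 14939 of 23238 transcript clusters; 989 had more and 7310 had none. Where a gene had more than 1 transcript cluster, that with the highest mean was used. One limma fit (version 3.58.1, R 4.3.3) of all 17 arrays held 4 group means and the animal as a random block, then eBayes and Benjamini-Hochberg adjustment over all 23238, with a threshold of 0.05. Fold changes are differences of group means. The steps were tested on simulated data.

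Members and lists were chosen with earlier results of these data known. Named were 18 model genes, the largest 15 rises and 15 falls among called genes without overlap, leaving out unnamed gene models, receptor segments and small RNA genes, and up to 4 called members per list. Other list members in the text were chosen after their values were seen and were not run in the alternatives. Alternatives, 24 in all, covered sex, age, block, arrays fitted, scaling, filter, array weights, pooled animals and left-out arrays. Areg was not analysed here.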

Additional observations from a re-analysis of the deposited data

Results flagged for a closer look

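Among the named genes, 1 array stood far from the others of its group in 20 of 376 groups of arrays; chance alone would set off about 1 in 20. Values are log2 RMA levels. Non-transgenic replicate 4 was apart for Cdo1 at 10.95 (others 11.27 to 11.35) and Pxdc1 at 8.99 (9.73 to 9.95), where it was low. It was high for Top2a at 7.24 (6.86 to 6.89), Mmp12 at 7.84 (6.95 to 7.18), Cxcl9 at 5.61 (4.95 to 5.07) and Cfi at 5.14 (4.85 to 4.92). Replicate 5 was high for Hlf at 9.17 (7.96 to 8.17), Timp3 at 12.28 (11.68 to 11.84), Tmem100 at 12.89 (12.65 to 12.68) and Spry2 at 10.61 (9.97 to 10.12), and low for Mmp14 at 8.24 (8.72 to 8.84) and Slc26a9 at 7.56 (8.24 to 8.52). All 12 of these values in controls thus came from replicate 4 or 5.

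Among the lesions, dysplasia replicate 3 was low for Slc2a3 at 6.42 (others 6.98 to 7.04) and Smad6 at 7.95 (8.47 to 8.57) and high for Cfi at 5.93 (5.51 to 5.57) and Spry2 at 11.09 (10.72 to 10.76). Replicate 1 was low for Kcnk2 at 8.8 (8.88 to 8.89) and Ksr1 at 7.5 (7.64 to 7.66) and high for Mmp12 at 8.36 (8.22 to 8.24). Replicate 4 was high for Col6a2 at 9.19 (9.04 to 9.06).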

How the results depend on the processing

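No paired analysis was possible because dysplasia and non-transgenic arrays share no animal. Of the 184 called named genes, 132 kept the call in all 24 alternatives, 52 lost it in at least 1 and none turned. Most losses came in animals labelled male (35), without non-transgenic replicates 1 to 3 (32) and with age as a covariate (28). With the spread taken from only the 9 arrays compared, 21 were lost. Among animals labelled male only controls 1 and 5 remained, and control 5 was low in Y-linked genes. Genes with 1 symbol called higher numbered 2299 with sex taken from Y-linked genes, 938 in animals labelled male and 2264 without non-transgenic replicates 4 and 5. Those called lower numbered 1084 in animals labelled male and 1015 with age. Only controls 4 and 5 were low in Y-linked genes. Taking sex from these genes and leaving out controls 4 and 5 thus both compare dysplasia with controls 1 to 3, and are not separate checks. At least 2-fold higher were 409 with sex from Y-linked genes and 408 without controls 4 and 5. Over all transcript clusters, where 1770 were called higher and 2292 lower, the same settings gave 2666 and 1094 higher, 1222 and 1137 lower, and 492 and 492 at least 2-fold higher. Leaving out 1 array at a time gave 1204 to 1768 higher, 1651 to 2000 lower, 206 to 305 at least 2-fold higher and 137 to 313 at least 2-fold lower (all transcript clusters: 1446 to 2053, 1876 to 2274, 279 to 384 and 166 to 365), with the 137 and 166 without dysplasia replicate 3. Among genes never called, Sftpc and Ager changed sign near 0. Sftpc was at -0.11 with cyclic loess and -0.00 without controls 1 to 3. Ager was at 0.01 with labelled sex, sex from Y-linked genes, age, without arrays naming 2 animals and without controls 4 and 5. It was at 0.00 with array weights, and at -0.02 to 0.02 without single arrays. Scgb1a1, at 0.53 over all controls and 0.91 against controls 1 to 3, was at -0.20 with labelled sex and -0.05 without controls 1 to 3. The causes were not tested. Signal near the low end of the arrays limits the size of changes from low control levels.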
